A study of Mus musculus with 28 samples.

Results

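The 6 genes described here code for FGF ligands (Fgf4, Fgf5 and Fgf8) and for feedback inhibitors of ERK signalling (Dusp6, Spry2 and Spry4), and the data are the binding events of Forkhead transcription factors around them in mouse embryonic stem (ES) cells. The genes were chosen by name from 21887 protein-coding genes, and every event inside a gene or within 50 kb of either of its ends was taken. Of 162571 events in 14 lists, 142 met this rule. They fell into 59 of 70233 sites when consecutive events of any list no more than 100 bp apart were joined.

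FGF ligands act through receptor tyrosine kinases, adaptor proteins and Ras on the kinases Raf, MEK and ERK, and active ERK enters the nucleus and turns on its own inhibitors. In ES cells FGF4 is the main autocrine ligand and drives exit from self-renewal, Fgf5 is a widely used marker of the epiblast state that follows, and FGF8 acts in the primitive streak. DUSP6 is a cytoplasmic phosphatase that removes the activating phosphates from ERK, and the Sprouty proteins SPRY2 and SPRY4 dampen the pathway upstream of ERK.

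Binding was measured by ChIP-exo, in which an exonuclease trims immunoprecipitated DNA back to the crosslinked protein. All lines derived from MC1 ES cells of strain 129S6/SvEvTac and carried a His6-FLAG-tagged factor at Rosa26, with puromycin resistance, that doxycycline (Dox) kept silent. After Dox had been removed by washing, the lines were kept in differentiation medium with 10% FBS for the hours given. The factor was thus forced on from a transgene, and every list comes from cells that carry one.

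The combined lists, 1 per factor at 24 h, were taken to pool the libraries of FoxA1 (2 with anti-FLAG and 1 with anti-FoxA1), FoxC1, FoxL2 and FoxP3 (2 each with anti-FLAG). FoxA1 was also followed at 0, 6, 12, 24 and 48 h, with 1 library and 1 list per time point for anti-FoxA1, which sees the protein itself, and for anti-FLAG, which sees the tag. An empty control line had 2 libraries at 0 h and no list used here, and the second of them names anti-FoxA1 in its title but anti-FLAG in its characteristics. The 0 h lists therefore give the only background, with the factor still repressed.

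List lengths ran from 15 to 41726 events, and anti-FLAG at 0 h gave 20 events, 18 of them mitochondrial. Each event is 1 bp wide and carries a score of 43 to 1000. No source used here gives the scale of the score, so scores are also given as the percentile within their own list. The lists hold no reads, so depth is unknown, and list length was not corrected for it. No list has a replicate, so no test between lists was possible, and the intervals on shares are Wilson 95% intervals that cover counting error only. RNA was not measured in these libraries, so neither the ES cell identity nor the level of any of the 6 genes can be checked here.

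The promoter of Dusp6 is shown because it is the one promoter of the 6 genes in which events were called and the bases beneath them could be read. Promoters of 250 bases before to 50 after the gene start were available from RefSeq (GRCm38.p6) for 4 of the 6 genes (Fgf4, Fgf5, Dusp6 and Spry2). The 250 bases before the Dusp6 start are chr10:99262981-99263230, on the plus strand, 5′ to 3′, with the forkhead letters TGTTTGC in capitals.
Dusp6 promoter: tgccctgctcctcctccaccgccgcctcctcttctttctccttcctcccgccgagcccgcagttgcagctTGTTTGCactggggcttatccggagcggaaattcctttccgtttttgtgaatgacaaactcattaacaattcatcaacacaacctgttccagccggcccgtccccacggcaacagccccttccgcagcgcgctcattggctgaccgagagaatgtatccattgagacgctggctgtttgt

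The capitals span positions 99263051 to 99263057, which are 180 to 174 bases before the start. Events of 6 lists fell within 7 bp here, between 99263049 and 99263055, and 5 of the 6 lay on the capital letters. The sequence was searched on both strands for TGTTTAC, for TGTTTGC and for TGTTTAT, and the capitals are the only match in the 300 bases of this promoter. The promoters of Fgf4, Fgf5 and Spry2 held no match and no event in any of the 14 lists. Among all 32851 promoters of this length, 12.5% held at least 1 of the 3 motifs and 5.07% held TGTTTGC. Of the 473 promoters with a combined FoxA1 event, 49.3% held at least 1 and 18.6% held TGTTTGC. A match of letters is a description and does not show which bases the factor touched.

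Counted over the lists, the feedback genes Dusp6 and Spry2 carried most of the events. Dusp6 had 55 events in 8 lists, Spry2 had 39 in 7, Spry4 and Fgf8 had 16 each in 7 and 6 lists, Fgf5 had 9 in 4 and Fgf4 had 7 in 4. The members share no events with each other, but they do share windows with other genes. Fgf3, Fgf15 and LTO1 reach into the window of Fgf4, Npm3, Oga and Kcnip2 into that of Fgf8, and Arhgap26 into that of Spry4, while Fgf5, Dusp6 and Spry2 have no other protein-coding gene in theirs. In all, 109 of the 142 events had a member as their nearest protein-coding gene.

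**Figure D1:**
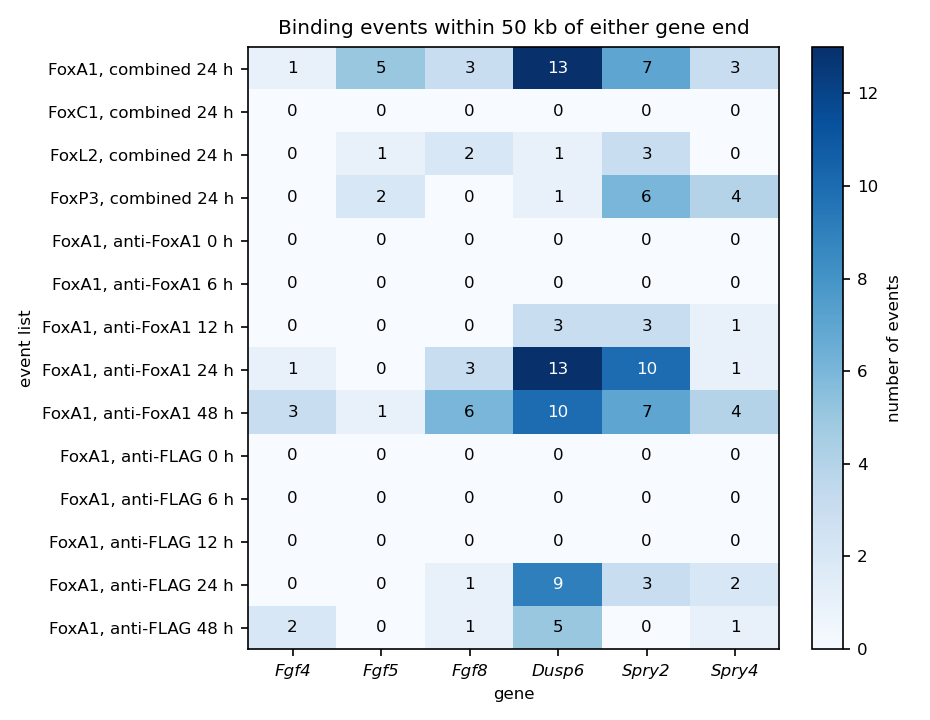
Number of events within 50 kb of either end of each of the 6 genes (columns) in each of the 14 lists (rows), with the shade following the number. The darkest cells are the 13 events at Dusp6 in the combined FoxA1 list and with anti-FoxA1 at 24 h. The FoxC1 row and the 0 h and 6 h rows are all 0.

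FoxA1 was called near every one of the 6 genes at 24 h in the combined list, with 32 events. Over all protein-coding genes 73.4% had at least 1 event, so presence alone says little about these genes. The median in this list was 4.0 events per member beside 2.0 over all genes. With anti-FoxA1 the medians were 2.0 beside 2.0 at 24 h and 5.0 beside 2.0 at 48 h. With anti-FLAG they were 1.5 beside 1.0 at 24 h and 1.0 beside 0.0 at 48 h. FoxP3, known from regulatory T cells, was called near 4 of 6 genes (background 20.6%) with 13 events. FoxL2, known from the ovary, was called near 4 of 6 (30.9%) with 7 events, and FoxC1, known from mesenchymal tissues, near 0 of 6 (7.26%). The events near the members made up 0.296% of the FoxP3 list, 0.0971% of the combined FoxA1 list and 0.0966% of the FoxL2 list. Of the 13 FoxP3 events, 6 were at Spry2 and 4 at Spry4, and Fgf4 and Fgf8 had none. With events no more than 500 bp apart counted once, 9 FoxP3 events remained.

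Fgf4 (gene ID 14175, chr7:144861386-144865245, plus strand) had few events, and its only combined FoxA1 event met no event of another list. That event lay 8098 bp past the gene end, at 144873343, with a score of 58 (percentile 14.8). A site at 144844430 to 144844476, 16910 to 16956 bp upstream, was called in 3 time course lists, with scores of 127 and 116 for anti-FoxA1 at 24 and 48 h and 84 for anti-FLAG at 48 h. This site lies 1082 to 1128 bp from Fgf3, another FGF ligand gene, and is much nearer to it than to Fgf4. Of the 7 events, 6 lay upstream of Fgf4, and only the events at 144855201 and 144873343 had Fgf4 as their nearest gene. No event of FoxL2 or FoxP3 fell in the window, and the nearest lay 304879 and 420390 bp away.

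Fgf5 (14176, chr5:98254184-98277033, plus strand) had 5 combined FoxA1 events, 2 FoxP3 events and 1 FoxL2 event, but no event in either 24 h time course list. The strongest FoxA1 event stood 2283 bp before the gene start, at 98251901, with a score of 167 (percentile 66.8), and the anti-FoxA1 list at 48 h had its only event 1 bp away, at 98251902, with a score of 98. A second FoxA1 event lay inside the gene at 98256047 with a score of 71, and the FoxL2 event lay inside it at 98260638 with a score of 86. The other 3 combined FoxA1 events and both FoxP3 events formed a group 33328 to 35169 bp past the gene end. FoxP3 and FoxA1 scored 147 and 123 at 98310361 and 98310382, and 46 and 52 at 98312202 and 98312151. Both pairs meet the 100 bp limit, at 21 and 51 bp, and both lie nearer to Cfap299 than to Fgf5.

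Fgf8 (14179, chr19:45736491-45742941) had all 16 of its events on the side of higher coordinates. The strand of Fgf8 was not in the promoter table, so upstream and downstream are not assigned. Of its 9 sites 1 was shared by 5 FoxA1 lists, at 45745655 to 45745695. Scores there were 268 in the combined list (percentile 79.4), 253 and 148 with anti-FoxA1 at 24 and 48 h, and 223 and 107 with anti-FLAG at 24 and 48 h. The site lies 2714 to 2754 bp from Fgf8 and 2039 to 2079 bp from Npm3, a histone chaperone gene, which is the nearer of the pair. A second site, at 45783836 to 45783843, stood 192 to 199 bp outside an end of Oga and was called in 3 FoxA1 lists with scores of 140, 67 and 102. Both FoxL2 events, with scores of 53 and 54, lay inside Oga, and FoxP3 had none in the window.

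**Figure D2:**
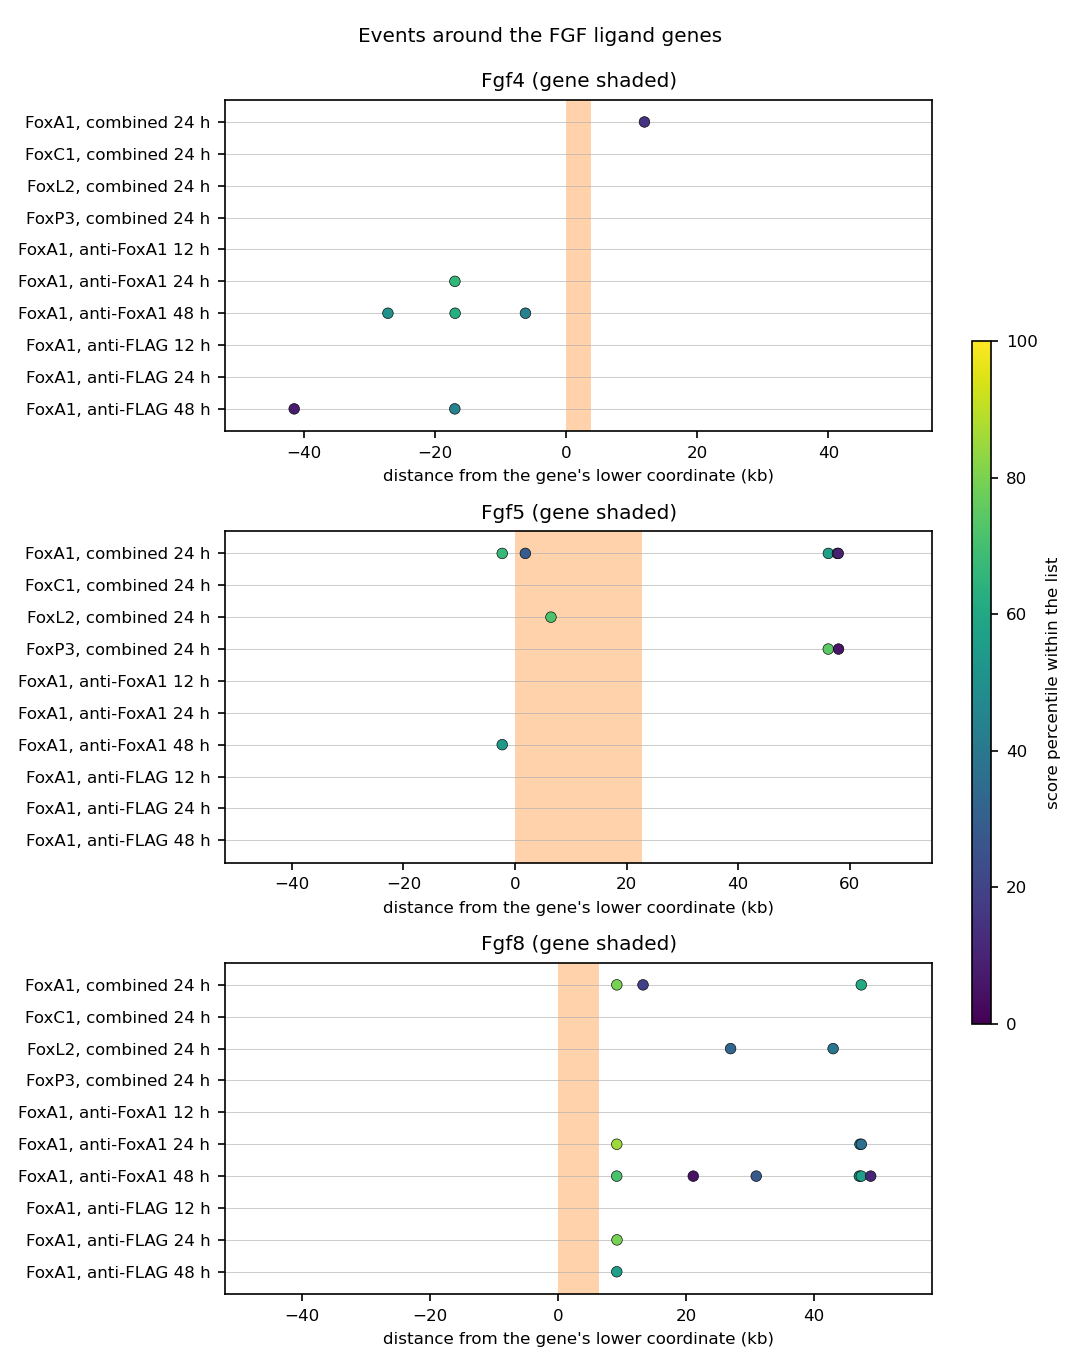
Events around Fgf4, Fgf5 and Fgf8, with the distance in kb from the lower coordinate of each gene on the x axis, 1 row per list with the 0 h and 6 h lists left out, and the score percentile within the list as colour. All Fgf8 events lie to the right of the shaded gene, and Fgf5 has no event in either 24 h time course list.

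Dusp6 (67603, chr10:99263231-99267489, plus strand) had 13 combined FoxA1 events, and 0.731% of all protein-coding genes had at least as many. A window widens with the length of its gene, and among genes no longer than the longest member, a comparison chosen after the data were seen, the share was 0.332%. Both shares are for 13 events. With combined FoxA1 events no more than 500 bp apart counted once, Dusp6 kept 10, and no share is set beside that count. The time course lists gave 13 events with anti-FoxA1 at 24 h (1.28% of genes had at least as many) and 9 with anti-FLAG (0.443%). At 48 h they gave 10 (6.01%) and 5 (2.82%). FoxP3 and FoxL2 had 1 event each and FoxC1 none, its nearest event being 80400 bp away.

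At the promoter site shown above, the combined FoxA1 event at 99263051 had a score of 810 (percentile 95.3). Anti-FoxA1 gave 53 at 12 h, 163 at 24 h and 233 at 48 h (percentiles 23.2, 74.1 and 83.2). FoxP3 gave its only event near Dusp6 there, at 99263053 with a score of 92 (percentile 56.4), 2 bp from the combined FoxA1 event. Anti-FLAG gave 53 at 24 h (percentile 15.1) and no event at 48 h. The site thus ranked high in the combined list and low in the single anti-FLAG list of the same hour. A combined FoxA1 event fell in 1.44% of all promoters, a FoxP3 event in 0.14% and both in 27 promoters, or 0.0822%, of which 63.0% held at least 1 of the motifs.

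The other 12 combined FoxA1 events all lay past the gene end, 3829 to 31595 bp from it, and Dusp6 was the nearest protein-coding gene to each event in its window. The strongest stood at 99293259 with a score of 1000, the ceiling, beside a second at 99293330 with 877. The site that holds both was called in 6 FoxA1 lists. Anti-FoxA1 gave 213 there at 12 h, 481 and 353 at 24 h and 579 at 48 h, and anti-FLAG gave 332 at 24 h and 81 at 48 h.

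A site at 99272101 to 99272122 ranked alike in 5 lists, between percentiles 92.9 and 96.3. Its scores were 817 in the combined list, 563 and 586 with anti-FoxA1 at 24 and 48 h, and 565 and 448 with anti-FLAG at 24 and 48 h. Another downstream site, at 99280501 to 99280547, was called in 6 lists with scores from 139 to 322, and anti-FoxA1 already gave 183 there at 12 h. Both strong sites past the gene end and this one were thus held with both antibodies at 24 and at 48 h. Inside the gene, an event at 99265099 to 99265102 was called with anti-FLAG at 24 and 48 h and with anti-FoxA1 at 48 h (scores 84, 76 and 128) and not in the combined list. The FoxL2 event at 99297825 had a score of 45 (percentile 7.68) and lay 32 bp from a combined FoxA1 event with 221. Of the 15 sites near Dusp6, 13 were called in at least 2 lists and 7 in at least 4, and no share over all sites is set beside these counts. Most lists are of FoxA1, and the combined one may share libraries with the time courses, so such calls are not independent of each other.

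**Figure D3:**
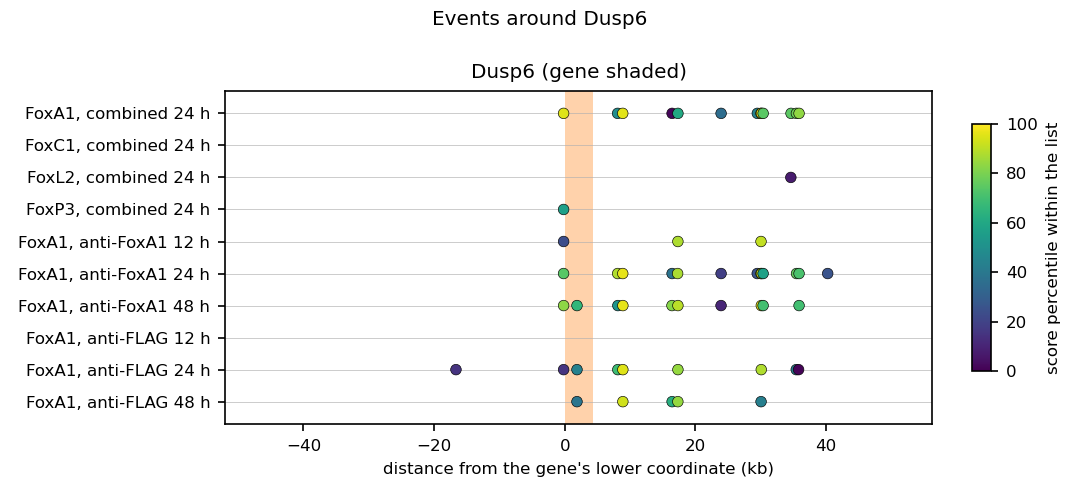
Events around Dusp6, with the distance in kb from the gene start on the x axis, 1 row per list with the 0 h and 6 h lists left out, and the score percentile within the list as colour. Columns of points mark positions called in several lists, first at the promoter and then past the gene end (shaded), and only 1 event lies further upstream.

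Spry2 (24064, chr14:105891947-105896819, minus strand) had 7 combined FoxA1 events (7.58% of genes had at least as many), 6 FoxP3 events (0.137%) and 3 FoxL2 events (3.5%). The FoxP3 count was reached by 30 genes in all. With FoxP3 events no more than 500 bp apart counted once, Spry2 kept 3. Events of FoxA1 and FoxP3 lay in 2 groups on either side of the gene and none inside it, and none of the FoxP3 events lay within 20 kb. One group lay 27103 to 40349 bp past the 3′ end, and the other 8064 to 26469 bp upstream of the start.

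The group past the 3′ end held all 3 anti-FoxA1 events at 12 h and all 3 anti-FLAG events at 24 h. At its far edge, around 105851598, the combined list gave 362 (percentile 85.4), anti-FoxA1 240, 248 and 230 at 12, 24 and 48 h, and anti-FLAG 121 at 24 h. At 105859043 FoxA1 and FoxP3 were called on the same base of the combined lists, with scores of 187 and 156. Among the 4 combined lists this is the only base near the 6 genes that holds events of different factors. FoxP3 also had weak events in this group, with 57 at 105859265 and 43 at 105851727.

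Upstream, FoxP3 had its strongest event near any of the 6 genes, at 105920540 with a score of 594 (percentile 97.7). The nearest combined FoxA1 event was 193 bp away, at 105920347 with a score of 68 (percentile 25.7), and a second FoxP3 event at 105920308, with 171, lay 39 bp from it. The 4 combined FoxA1 events upstream scored 68 to 78, so the strong FoxP3 event stood among weak FoxA1 events. FoxL2 kept to positions of its own, with 74 inside the gene at 105892345, 59 at 105900368 and 44 at 105900869, and no FoxA1 or FoxP3 event lay within 100 bp of these. At 48 h anti-FoxA1 gave 7 events near Spry2 and anti-FLAG gave none.

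Spry4 (24066, chr18:38586247-38601347) had 3 combined FoxA1 events and 4 FoxP3 events, and 0.74% of genes had at least as many FoxP3 events. A site inside the gene, at 38587273 to 38587334 and 1026 to 1087 bp from its lower end, was called in 5 FoxA1 lists. Its scores were 288 in the combined list (percentile 81.1), 255 and 164 with anti-FoxA1 and 242 and 180 with anti-FLAG at 24 and 48 h. FoxP3 had no event at this site. Its events stood in pairs, with 133 and 96 at 38573900 and 38574174 below the gene, and 89 and 195 at 38636100 and 38636856 inside Arhgap26. The last lay 4 bp from a combined FoxA1 event with a score of 73. The only anti-FoxA1 event at 12 h, at 38626189 with a score of 79, also lay inside Arhgap26.

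**Figure D4:**
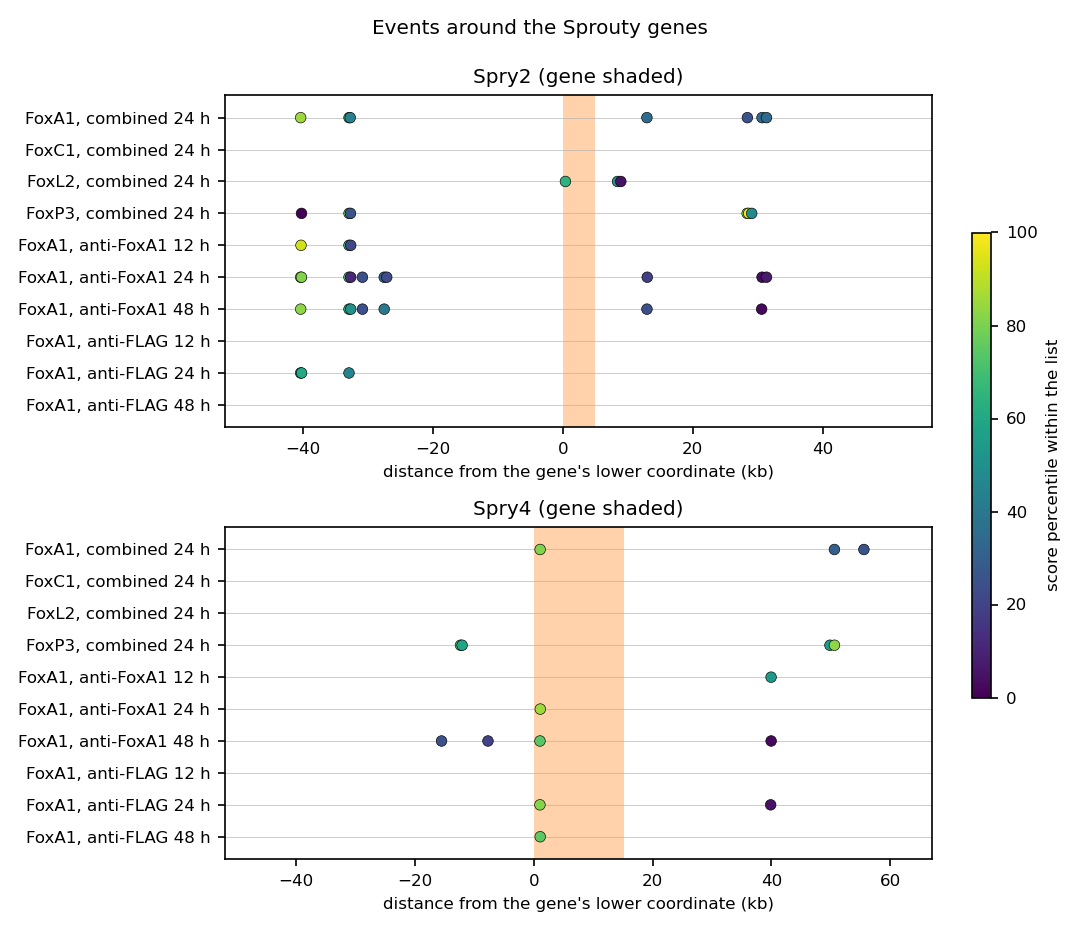
Events around Spry2 and Spry4, with the distance in kb from the lower coordinate of each gene on the x axis, 1 row per list with the 0 h and 6 h lists left out, and the score percentile within the list as colour. Spry2 is transcribed towards lower coordinates, and its FoxA1 and FoxP3 events form a group on each side of the shaded gene, while 5 FoxA1 lists share a site inside Spry4.

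**Figure D5:**
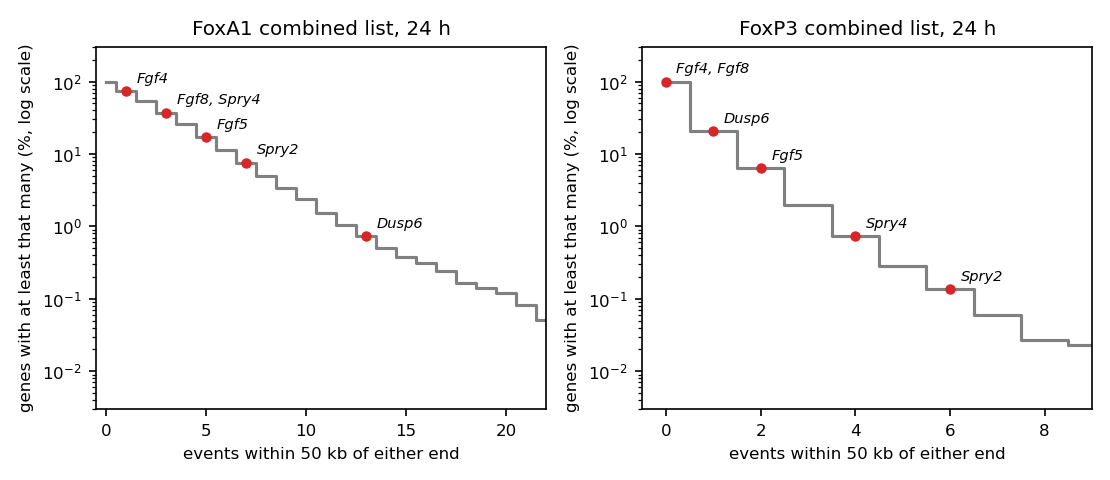
Percent of all 21887 protein-coding genes (log scale) with at least a given number of events within 50 kb of either end, for the combined FoxA1 list on the left and the FoxP3 list on the right, with the 6 genes marked as points. Dusp6 lies at 0.731% for FoxA1, and Spry2 and Spry4 lie at 0.137% and 0.74% for FoxP3.

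Coincidence between factors was measured on the 4 combined lists. Events within 100 bp joined into 43 sites near the 6 genes, of which 8 (18.6%, 9.74–32.6) held 2 factors and none held 3 or 4. Over all 40974 sites, 8.6% (8.33–8.87) held at least 2 factors. FoxA1 with FoxP3 made up 7 of the 8 sites and FoxA1 with FoxL2 the remaining 1. FoxA1 was alone at 23 sites, and FoxL2 and FoxP3 were each alone at 6. Alone refers to the combined lists. The lone FoxP3 site at 105851727 near Spry2 lay 128 bp from a combined FoxA1 event and 5 bp from an anti-FoxA1 event of 24 h.

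Of the 13 FoxP3 events 7 lay within 100 bp of a combined FoxA1 event (53.8%, 29.1–76.8), beside 42.6% (41.1–44.0) over the whole FoxP3 list. In the other direction it was 7 of the 32 FoxA1 events (21.9%, 11.0–38.8), beside 5.85% (5.6–6.11). The latter interval lies above the share of the whole list and the former includes it, but both directions count the same 7 sites. Events at 1 gene are not independent of each other, and the genes were chosen with earlier results known. The intervals cover counting error only, so no excess is read from them. By gene, the FoxP3 events that met FoxA1 were 3 of 6 at Spry2, both at Fgf5, the 1 at Dusp6 and 1 of 4 at Spry4. FoxL2 met FoxA1 in 1 of 7 events (14.3%, 2.57–51.3), beside 18.5% of its list.

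The labels list the libraries of the FoxA1 time courses apart from the 3 others of 24 h, but which libraries went into the combined list is not stated. If it includes those of the time courses, the overlaps that follow are in part of a list with itself. Of the 32 combined events, 21 (65.6%, 48.3–79.6) had an anti-FoxA1 event of 24 h within 100 bp, beside 54.8% of the whole list. This split by gene into 12 of 13 at Dusp6, 6 of 7 at Spry2, 2 of 3 at Fgf8, 1 of 3 at Spry4, 0 of 5 at Fgf5 and 0 of 1 at Fgf4. With anti-FLAG at 24 h it was 12 of 32 (37.5%, 22.9–54.7), beside 33.0%. By gene this was 8 of 13 at Dusp6, 2 of 7 at Spry2, 1 of 3 at Fgf8 and at Spry4, 0 of 5 at Fgf5 and 0 of 1 at Fgf4. Most combined events at Dusp6 thus had a neighbour in both time course lists, those at Spry2 mostly with anti-FoxA1 alone, and those at Fgf5 and Fgf4 in neither. Between the antibodies, 12 of the 15 anti-FLAG events at 24 h had an anti-FoxA1 event within 100 bp (80.0%, beside 86.0% of that list).

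Over time, no event was called near the 6 genes at 0 or 6 h with either antibody. Over all genes, 0.0731% and 0.576% had an event with anti-FoxA1 and 0.0% and 0.0411% with anti-FLAG at these hours. With anti-FoxA1 the genes with an event were 3 of 6 at 12 h (background 36.6%), 5 of 6 at 24 h (73.5%) and 6 of 6 at 48 h (76.6%), with 7, 28 and 31 events. With anti-FLAG they were 0 of 6 at 12 h (9.81%), 4 of 6 at 24 h (51.6%) and 4 of 6 at 48 h (49.1%), with 0, 15 and 9 events. The anti-FoxA1 list at 12 h held 8345 events and the anti-FLAG list 1656, so the later start with anti-FLAG goes with a shorter list, and the part of list length in it was not tested.

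With anti-FoxA1, 36 sites near the 6 genes were first called at 12 h (7, or 19.4%), 24 h (20, or 55.6%) or 48 h (9, or 25.0%), beside 15.8%, 52.7% and 31.3% of all 51083 sites. Those of 12 h were all at the feedback genes, 3 at Dusp6, 3 at Spry2 and 1 at Spry4. Within 50 kb the FGF ligand genes of the 6 had none until 24 h, when Fgf8 gained 3 sites and Fgf4 gained 1, and Fgf5 had its single site at 48 h. The 3 sites of 12 h at Dusp6 and the 3 at Spry2 were all called again at 24 and 48 h, whereas that at Spry4 was called at 48 h and not at 24 h. This split depends on the window, since at 12 h only Dusp6 had an event within 20 kb, and within 100 kb 4 of the 6 genes did, 1 ligand gene among them. Of 19 other Fgf genes, 6 (31.6%) had an anti-FoxA1 event within 50 kb at 12 h, beside 36.6% of all genes. Fgf11, Fgf12, Fgf13 and Fgf14, which code for intracellular proteins and not for secreted ligands, are among the 19 and had 0 each. At that hour 46.7% of 15 other feedback inhibitors and 72.0% of 25 receptor and cascade genes had one. For 15 genes that respond to ERK it was 33.3%. Early calls were thus not particular to feedback genes.

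With anti-FLAG, 15 of 18 sites (83.3%) were first called at 24 h and 3 (16.7%) at 48 h, beside 71.4% and 20.3% of all 19868 sites. Of the 15 anti-FLAG events at 24 h, 6 had one within 100 bp at 48 h (40.0%, 19.8–64.3), beside 61.3% of the whole list. With anti-FoxA1 the same step kept 22 of 28 events (78.6%), beside 72.0%. The loss with anti-FLAG included all 3 events at Spry2, where anti-FoxA1 still gave 7 at 48 h.

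Other genes of the pathway were described by the same window, and long genes have wider windows. Over all protein-coding genes the shares to set beside these counts are 73.4% for FoxA1, 20.6% for FoxP3, 30.9% for FoxL2 and 7.26% for FoxC1, and nothing particular to a list is read from them. Among other feedback inhibitors of ERK, 14 of 15 had a combined FoxA1 event, 7 a FoxP3 event, 8 a FoxL2 event and 3 a FoxC1 event. Spred2 had 10 FoxA1 events, Dusp4, a nuclear relative of Dusp6, had 9, and Cbl, a ubiquitin ligase of activated receptors, had 8. At Dusp4 anti-FoxA1 gave 1 event at 24 h and 5 at 48 h, and anti-FLAG gave 0 at both hours.

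Of the receptors and the cascade to ERK, 21 of 25 genes had a combined FoxA1 event, 10 a FoxP3, 16 a FoxL2 and 3 a FoxC1 event. Sos2, an exchange factor of Ras, Map2k1, which encodes the ERK kinase MEK1, and Klb, a co-receptor, had 13 FoxA1 events each, as many as Dusp6. Among the 19 other Fgf genes, not all of which code for secreted ligands, the numbers were 16, 8, 3 and 2. They were led by Fgf1 with 11 FoxA1 events and Fgf21 with 8, then Fgf9 with 3. Fgf3 and Fgf15 in this list share the window of Fgf4 in part. Of 15 genes that respond to ERK, most of them transcription factor genes, 11 had a FoxA1 event (73.3%, close to the share over all genes). A FoxP3 event was called at 5, a FoxL2 event at 6 and a FoxC1 event at 1. Etv5, an ETS factor induced by FGF, had 13 FoxA1 and 3 FoxP3 events, and anti-FoxA1 gave 8 there at 12 h. Etv1 had 8 FoxA1 events and Elk3 had 7.

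The genes with the most similar counts were found by summing the absolute differences in event number over the 14 lists, among 21871 genes that share no event with the 6. Fam205a1 had the same counts as Fgf4 in every list. Araf, a Raf kinase gene of the same pathway, and Slc25a32 differed from Spry4 by 3 events in all. Plekhf2 differed from Dusp6 by 8, and Gpr1 and Znrf1 differed from Spry2 by 9. The sum is not scaled to the number of events, and Dusp6 and Spry2 have the most, so the larger differences do not mark them as unusual.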

How the data were processed

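ChIP-exo events of FoxA1, FoxC1, FoxL2 and FoxP3 were taken from 14 lists (19 libraries). Some items of the series are not reported here. Groups, hours and antibodies came from the sample titles and characteristics. Per the submitters' processing notes, the build was mm10 and the tools were BWA 0.7.17-r1188, Picard and SAMtools. Per the file headers, the event caller was ChExMix. The authors deposited 1 score with each event. No source used here states the scale of the score, the thresholds, the controls or how libraries were combined.

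Positions were used as deposited. Gene ends came from a RefSeq table of GRCm38.p6, the same build (21887 protein-coding genes of 49943), and 32851 promoters of 300 bases from the same source. Neither holds exon positions, so exons and introns were not assigned, and no genome sequence outside these promoters was used. Events within 50 kb of either gene end were counted, lists were compared within 100 bp, and joined events formed sites. Shares carry Wilson 95% intervals. No p-value was computed. The 6 genes, the pathway lists and the rules were chosen with earlier results of these data known. Named genes outside the 6 were the up to 3 genes of each pathway list with the most combined FoxA1 events (ties by the nearest event), up to 2 genes with the most similar counts (given for 4 of the 6 genes), and the nearest gene of a site described. The time course values of Dusp4 were chosen for the text after they were seen.

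Alternatives were windows of 20 and 100 kb, coincidence within 50 bp, 200 bp or on the same base, events at or above the median score of their list, events away from those of 0 h, runs with gaps of at most 500 bp counted once, and other FoxA1 lists of 24 h. The comparison with short genes was added after the data were seen. The functions were tested on simulated data. Python 3.11.15, pandas 2.3.3, numpy 2.4.6 and matplotlib 3.10.9 were used.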

Additional observations from a re-analysis of the deposited data

How the results depend on the processing

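Counts moved mainly with the window. Within 20 kb the events near the 6 genes were 13 for combined FoxA1, 4 for FoxL2 (2 genes), 3 for FoxP3 (2 genes), 2, 10 and 16 for anti-FoxA1 at 12, 24 and 48 h (1 gene at 12 h) and 8 for anti-FLAG at 24 h. There, 1 site held 2 factors and 6 sites held FoxA1 with both antibodies at 24 h. First calls were 2 at 12 h and 8 at 24 h with anti-FoxA1 and 8 at 24 h with anti-FLAG. Within 100 kb the events were 49 for combined FoxA1, 2 for FoxC1 (2 genes), 15 for FoxL2, 11 for anti-FoxA1 at 12 h (4 genes), and 2 (2 genes) and 17 for anti-FLAG at 12 and 48 h. In that window 19 sites held FoxA1 with both antibodies, and first calls with anti-FoxA1 were 11 at 12 h and 14 at 48 h, and anti-FLAG gave 2 at 12 h and 5 at 48 h. With events at or above the median score of their list alone, events were 16 for combined FoxA1, 3 for FoxL2 (2 genes), 16 and 19 for anti-FoxA1 and 8 and 5 for anti-FLAG at 24 and 48 h, 3 sites held 2 factors, and first calls were 10 at 24 h with anti-FoxA1, and anti-FLAG gave 8 at 24 h and 1 at 48 h. On the same base, 1 site held 2 factors, 1 held FoxA1 with both antibodies (12 within 100 bp), and first calls at 48 h were 28 with anti-FoxA1 and 9 with anti-FLAG. The windows and the score limit admit fewer or more events, and the same-base setting keeps the events and joins fewer of them into sites. The counts stayed within 1.5 times under coincidence at 50 or 200 bp, without events near those of 0 h, and with runs counted once, apart from the FoxP3 count at Spry2 given above.

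By gene, the combined FoxA1 count within 20 kb was 6 at Dusp6, 2 at Fgf5, and 1 at Spry2 and at Spry4. In place of the combined list, the anti-FoxA1 list of 24 h gave 0 at Fgf5 and 1 at Spry4, and the anti-FLAG list 0 at Fgf4, 0 at Fgf5, 1 at Fgf8 and 3 at Spry2. No paired analysis was possible because the combined lists do not show the libraries of a factor apart and each time course list is 1 library of its hour and antibody. Leaving out a replicate was not possible for the same reason. Depth is unknown, so an event missing from a short list is not shown to be absent from the cells.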
